A study of Rattus norvegicus with 939 samples.

Results

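The genes described here encode the working parts of the lysosome: its soluble hydrolases, the proteins of its membrane and the proton pump that acidifies it. The list held 38 genes, picked by name with earlier results of these data known. Of these, 35 had a probe set in the platform annotation among the 14218 genes measured. Sgsh, Galns and Npc1 were not analysed here. The 35 were divided by what their products do into 7 membrane proteins (Lamp1, Lamp2, Cd63, Scarb2, Laptm4b, Cln3, Mcoln1), 9 proteases (Ctsa, Ctsb, Ctsc, Ctsd, Ctsh, Ctsl, Ctss, Ctsz, Tpp1), 9 of 11 listed enzymes that remove sugars or degrade glycans (Gaa, Gla, Glb1, Gusb, Hexa, Neu1, Naglu, Fuca1, Man2b1), 5 of 6 listed proteins of lipid breakdown and transfer (Lipa, Npc2, Psap, Smpd1, Asah1) and 5 parts of the proton pump (Atp6v0d1, Atp6v1a, Atp6v1b2, Atp6v1h, Atp6ap1).

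The expression data came from primary rat hepatocytes, liver parenchymal cells kept in culture, exposed to drugs and toxicants and profiled on Affymetrix arrays. All 939 arrays, treated and control, were of cells that received DMSO as the vehicle, in 5 campaigns that the labels keep apart. In campaigns 1 to 3 each of 125 compounds was given at 1 concentration or, for a few, at a further one, on arrays at 0.67 d and 1 d, with 6 arrays in 126 of these treatments and 5 in the other 2, and 6 to 34 matched controls. Campaign 4 repeated chlorpromazine at 43.9 uM for 1 d on 6 treated and 6 control arrays, and campaign 5 exposed cells to 6 compounds at 3 concentrations each for 1 d, with 3 arrays a concentration and 3 controls. Controls were matched to a compound through their own description, and several compounds shared controls. The strain and age of the rats were not given in the sources used here. The methods of the study name male animals for the tissues of the resource without saying whether this covers the hepatocytes. The labels number the replicates without stating that they came from separate animals, so p-values measure the spread between these arrays. Where 1 value per compound was used, they measure the spread between compounds.

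Lysosomes are acidic organelles in which hydrolases degrade proteins, glycans and lipids delivered by endocytosis and autophagy. The vacuolar ATPase pumps in the protons, and many of the genes are controlled by TFEB and related transcription factors, which bind E-box sequences in their promoters. Cationic amphiphilic drugs join a lipophilic ring system to a basic amine, become protonated and trapped in the lysosome, and are known to cause storage of phospholipid there. The 125 compounds held 22 such drugs, 19 further bases that are weaker, less lipophilic or less clearly of this kind, 2 aminoglycoside antibiotics and the rest. They were sorted from general knowledge of the compounds, with earlier results of these data known.

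The promoters of 31 of the 38 listed genes could be read from RefSeq (rat assembly GRCr8), as windows from 250 bases before to 50 bases after the transcription start. The core E-box CACGTG, which reads the same on both strands, occurred in 9 of these 31 windows (29%) and in 2148 of all 33469 windows (6.42%). The longer form TCACGTGA, which contains the core and is also its own reverse complement, occurred in 5 of the 31 (16.1%) and in 260 of all windows (0.777%). The 5 windows that held the longer form were those of Lamp1 (chr16:83075014-83075313, minus strand), Cln3 (chr1:190597880-190598179, minus strand), Mcoln1 (chr12:6358008-6358307, plus strand), Ctsd (chr1:206968772-206969071, minus strand) and Atp6v0d1 (chr19:50357199-50357498, minus strand). They are shown 5′ to 3′ on the strand of the gene because they carry the sequence by which lysosomal genes are usually grouped, with each CACGTG in capitals.
Lamp1: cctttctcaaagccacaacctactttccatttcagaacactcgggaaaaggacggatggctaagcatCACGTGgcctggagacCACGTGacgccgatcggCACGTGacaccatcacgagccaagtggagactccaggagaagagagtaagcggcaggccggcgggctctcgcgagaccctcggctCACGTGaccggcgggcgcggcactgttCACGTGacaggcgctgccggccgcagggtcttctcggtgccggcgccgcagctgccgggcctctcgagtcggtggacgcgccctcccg
Cln3: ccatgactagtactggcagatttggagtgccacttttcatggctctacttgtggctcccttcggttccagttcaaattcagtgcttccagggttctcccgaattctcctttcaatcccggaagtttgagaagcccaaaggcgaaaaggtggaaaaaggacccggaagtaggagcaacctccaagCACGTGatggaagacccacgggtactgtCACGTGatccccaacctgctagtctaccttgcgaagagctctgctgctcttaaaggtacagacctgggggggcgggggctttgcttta
Mcoln1: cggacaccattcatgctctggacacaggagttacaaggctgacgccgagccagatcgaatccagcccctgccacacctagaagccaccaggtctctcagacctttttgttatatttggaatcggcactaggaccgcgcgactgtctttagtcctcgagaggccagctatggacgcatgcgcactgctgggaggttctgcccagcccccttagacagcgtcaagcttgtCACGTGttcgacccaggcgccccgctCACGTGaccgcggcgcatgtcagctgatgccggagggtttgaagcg
Ctsd: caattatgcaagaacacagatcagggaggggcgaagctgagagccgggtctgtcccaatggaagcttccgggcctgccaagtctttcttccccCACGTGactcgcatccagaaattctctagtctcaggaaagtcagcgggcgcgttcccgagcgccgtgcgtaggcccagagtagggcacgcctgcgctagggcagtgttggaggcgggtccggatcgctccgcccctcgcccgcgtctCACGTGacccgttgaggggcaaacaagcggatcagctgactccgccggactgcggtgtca
Atp6v0d1: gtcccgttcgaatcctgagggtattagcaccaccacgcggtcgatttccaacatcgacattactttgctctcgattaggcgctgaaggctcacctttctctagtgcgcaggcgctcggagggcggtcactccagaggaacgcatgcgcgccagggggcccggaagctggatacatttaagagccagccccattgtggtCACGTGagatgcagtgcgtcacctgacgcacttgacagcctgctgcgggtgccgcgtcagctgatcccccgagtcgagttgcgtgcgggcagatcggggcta
The Lamp1 window held 5 copies of the core, and those of Cln3, Mcoln1 and Ctsd held 2 each. A match of letters is a description of the window and was not tested as a binding site. The windows of Neu1, Naglu, Npc2, Tpp1 and Ctsc held none, and Asah1, Atp6v1b2 and Atp6v1h had no entry in the table.

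All arrays had medians between 5.41 and 5.73 on the log2 scale. Hepatocyte markers such as albumin were high in every control array, with means over the 11 measured markers of 11.3 to 12.2. Means over the 15 measured macrophage markers ran from 5.4 to 8.43 among controls, and Ctss, a cathepsin prominent in macrophages, ran beside them, from a mean of 5.39 in the control set with the lowest level to 9.01 in the set with the highest. In those same sets the other macrophage markers averaged 5.67 and 8.02, so the cultures differed in the signal of this cell type, and its part in the levels of other members was not tested. A smaller number of macrophages and less of their RNA per cell cannot be told apart in such samples. The labels of 2 libraries of 1 hybridization day did not match their values. Gusb was at 9.54 in 1 library labelled gemfibrozil 1 d replicate 1 and between 6.32 and 6.65 in the other 5 gemfibrozil arrays, and at 6.78 in 1 library labelled clofibrate 0.67 d replicate 1 and between 9.06 and 9.68 in the other 5 clofibrate arrays.

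The first question was how often the lysosomal genes responded to the compounds at all. A gene was called in a treatment when its Benjamini-Hochberg adjusted p in limma was 0.01 or less over all 14218 genes and its change against controls at least 1.5-fold. Of the 4480 combinations of a member and a treatment, 319 were called higher (7.12%), where 3.67% of all combinations of a gene and a treatment were higher, and 248 were called lower (5.54%), where 4.92% of all were lower. At least 1 member was called in 90 treatments and none in 38. Of the members, 10 were called only higher, 7 only lower and 13 both ways, and 5 (Lamp1, Lamp2, Cd63, Ctsb and Ctsl) were called in no treatment. With a bound of 2-fold the member calls dropped to 71 higher and 89 lower. Over all genes they dropped from 66813 to 20051 higher and from 89452 to 38661 lower, of 1819904 combinations. At this bound the members' share of lower calls was no longer above that of all genes.

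**Figure D1:**
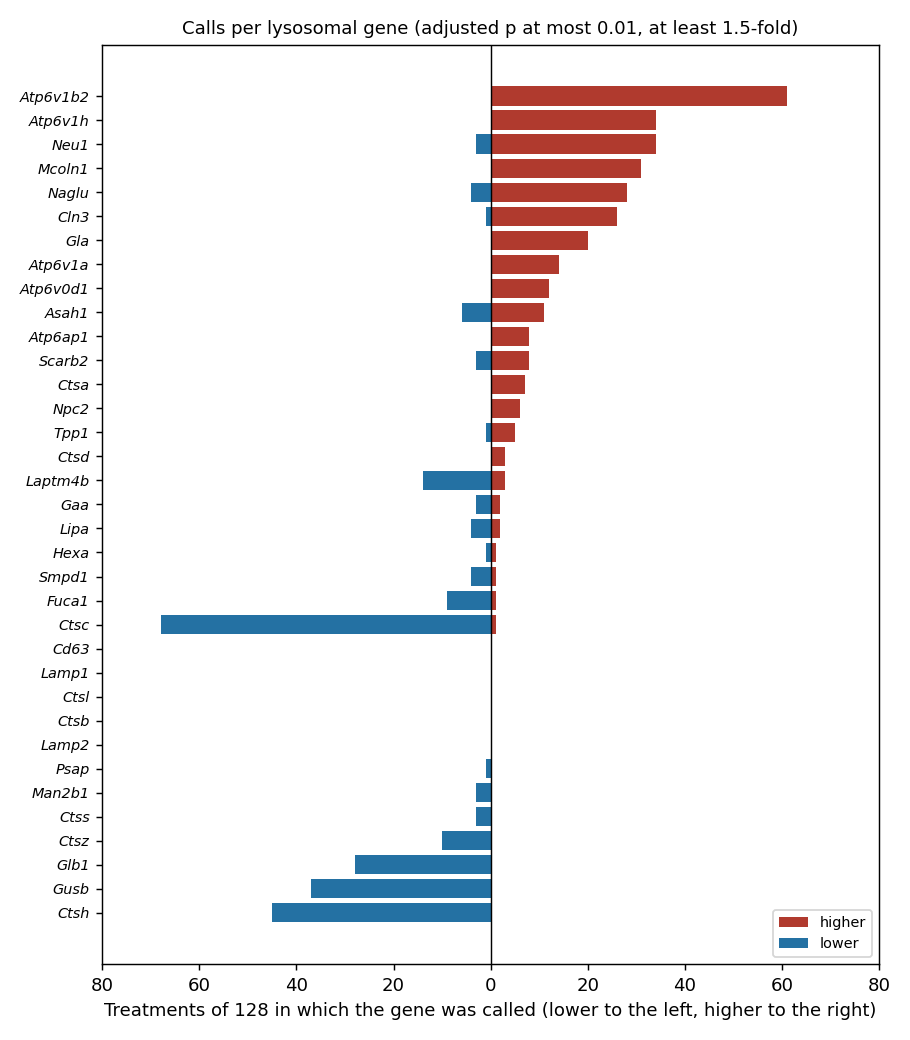
Number of treatments in which each of the 35 lysosomal genes was called higher (bars to the right) or lower (bars to the left) than its controls. Atp6v1b2 was called higher in 61 treatments and lower in none, and Ctsc lower in 68 and higher in 1.

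The proton pump accounted for 129 of the 319 higher calls and for none of the lower calls. Atp6v1b2, a subunit of the catalytic head that hydrolyses ATP, was called in 61 treatments, and its mean change over all treatments was 0.65 on the log2 scale. In controls it lay between 8.33 and 9.88. The lowest, median and highest of the 6 arrays with pantoprazole at 650 uM were 11.01, 11.3 and 11.6, against 8.87, 9.02 and 9.64 in the 8 controls. The groups did not overlap, and the change of 2.24 ± 0.13 (SE, adjusted p = 3.03e-09) was the largest increase of any member in any treatment, 4.71-fold. Atp6v1h, the regulatory H subunit of the head, was called higher in 34 treatments and Atp6v1a, the other main subunit of the head, in 14. With pantoprazole Atp6v1h read 10.99, 11.1 and 11.2 in treated and 9.06, 9.12 and 9.46 in control arrays, again without overlap, a change of 1.93 ± 0.066 (SE, adjusted p = 2.86e-11). Atp6v0d1, a subunit that joins head and membrane sector, was called in 12 treatments, and Atp6ap1, an accessory protein of the pump, in 8.

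Among the membrane proteins, Mcoln1 and Cln3 were called most often and the structural glycoproteins in no treatment. Mcoln1, the lysosomal cation channel mucolipin, was called higher in 31 treatments and lower in 0. Its arrays with pantoprazole read 9.28, 9.60 and 9.94 against 7.80, 8.06 and 8.33 in controls, a change of 1.57 ± 0.11 (SE, adjusted p = 2.05e-08) with no overlap. Cln3, a membrane protein lost in juvenile Batten disease, was called higher in 26 treatments and lower in 1, sporidesmin A. Scarb2, the receptor that carries glucocerebrosidase to the lysosome, was called higher in 8 treatments and lower in 3, with changes from -0.87 with sparteine to 0.84 with amineptine. Laptm4b, a small transmembrane protein, was called lower in 14 treatments and higher in 3. For Lamp1 and Lamp2, the most abundant glycoproteins of the membrane, and for the tetraspanin Cd63, the changes over all treatments stayed within -0.38 and 0.51.

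The glycan-degrading enzymes split into a group that was called higher and a group that was called lower. Neu1, the sialidase, was called higher in 34 treatments and lower in 3, Naglu, which degrades heparan sulfate, in 28 and 4, and Gla, the alpha-galactosidase lacking in Fabry disease, in 20 and 0. With amineptine at 1667 uM the 6 Neu1 arrays read 9.54, 9.71 and 9.80 against 8.09, 8.31 and 8.42 in 6 controls, without overlap, a change of 1.40 ± 0.067 (SE, adjusted p = 3.54e-09). Naglu reached its largest change with lansoprazole at 240 uM, 1.11 ± 0.13 (SE, adjusted p = 9.18e-07). In the other direction Gusb, beta-glucuronidase, was called lower in 37 treatments and Glb1, the beta-galactosidase, in 28, and neither was called higher in any. Gusb read 6.95, 7.29 and 7.81 with vinblastine at 45 uM against 9.03, 9.29 and 9.61 in 16 controls, a change of -1.99 ± 0.085 (SE, adjusted p = 4.97e-15). Its most negative value, -2.43 with gemfibrozil, included the library that did not match its label, and was -2.92 without it. For Glb1 the lowest, median and highest values with cisplatin at 63 uM were 7.55, 7.79 and 8.35 against 8.96, 9.14 and 9.34 in 8 controls, a change of -1.25 ± 0.13 (SE, adjusted p = 1.35e-06), with no overlap. Fuca1 was called lower in 9 treatments and higher in 1 (valproic acid), Man2b1 lower in 3, Gaa higher in 2 and lower in 3, and Hexa once in each direction.

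The proteases held 127 of the 248 lower calls, and 68 of these came from Ctsc and 45 from Ctsh. Ctsc, the dipeptidyl peptidase that activates granule proteases, was called lower in 68 treatments and higher in 1 (cytochalasin B), with a mean change over all treatments of -0.71. With vinblastine its 6 arrays read 7.995, 8.61 and 8.86 and its 16 controls 10.5, 10.96 and 11.4, without overlap, a change of -2.39 ± 0.12 (SE, adjusted p = 6.37e-14). Ctsh, an aminopeptidase and endopeptidase, was called lower in 45 treatments and higher in 0. With vinblastine it read 6.97, 8.22 and 9.003 against 9.78, 10.3 and 10.6, a change of -2.08 ± 0.18 (SE, adjusted p = 4.14e-10). Ctsz was called lower in 10 treatments. Ctsb and Ctsl, both cysteine proteases, lay within 0.44 of their controls in every treatment and were not called, and the aspartic protease Ctsd was called higher in 3 treatments. Ctsa, the protective protein that holds Neu1 and Glb1 in a complex, was called higher in 7 and Tpp1, a tripeptidyl peptidase, higher in 5 and lower in 1. Ctss lay more than 1 from its controls in 9 treatments but was called in 3, and its level in control arrays ran from 5.06 to 9.78. The macrophage markers were called lower in 5.26% of their combinations with treatments and higher in 1.77%.

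Genes of lipid breakdown and transfer were called higher 20 times (3.12% of their combinations with treatments) and lower 15 times (2.34%), both shares below the 3.67% and 4.92% of all genes. Asah1, the acid ceramidase, was called higher in 11 treatments and lower in 6, with changes from -1.27 with sporidesmin A to 0.86 with the antifungal sulconazole at 40 uM. With sulconazole the lowest, median and highest Asah1 arrays were 9.75, 10.01 and 10.3 against 8.85, 9.04 and 9.53 in 6 controls, and the groups did not overlap. Npc2, which hands cholesterol to the membrane protein NPC1, was called higher in 6 treatments and lower in 0. Smpd1, the acid sphingomyelinase, was called lower in 4 treatments and higher in 1, Lipa, the acid lipase, lower in 4 and higher in 2, and Psap, the precursor of the saposins, lower in 1.

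Whether cationic amphiphilic drugs differed from the other compounds was tested with 1 value per compound, the mean log2 change against its own controls, in limma with the control set as a random block. The 22 drugs gave higher values than the 103 other compounds for 19 of 35 members at an adjusted p of 0.05 or less, where 5.35% of all 14218 genes were higher, and lower values for 0 members, where 3.26% were lower. At an unadjusted p of 0.05, 22 members were higher (11.7% of all genes) and 0 lower (10.8% of all genes). The median difference over the 35 members was 0.17 on the log2 scale, beside -0.0078 over all genes. In the 22 drugs 21 members lay above their controls in every drug, and 2, Ctsc and Ctsh, lay below in every drug. The share of all genes with 1 sign in every drug is not given here. These 2 counts are therefore not read as a result about the members or the class.

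**Figure D2:**
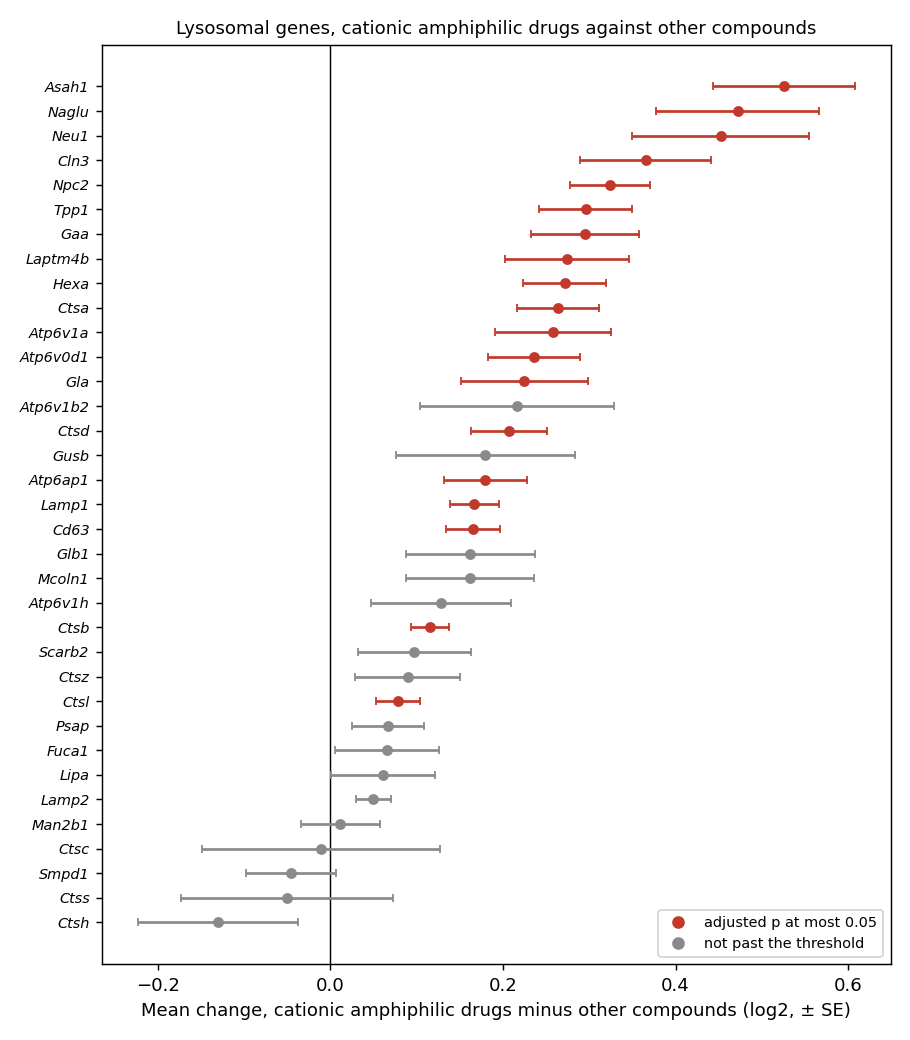
Difference between the mean log2 change in 22 cationic amphiphilic drugs and that in 103 other compounds for each of the 35 lysosomal genes, with its standard error. The differences ran from -0.13 (Ctsh) to 0.53 (Asah1), and the 19 genes in red passed an adjusted p of 0.05.

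Asah1, the ceramidase, had the largest difference. Its mean change was 0.47 ± 0.20 (SD over 22 drugs) against -0.05 ± 0.38 (SD over 103 compounds) in the others, a difference of 0.53 ± 0.082 (SE, adjusted p = 2.62e-06), and it was above controls in 22 of 22 drugs and in 48 of 103 other compounds. With fluoxetine at 58 uM, a serotonin reuptake inhibitor, the 6 Asah1 arrays read 9.88, 10.1 and 10.4 and the 12 controls 8.39, 9.36 and 9.59. All 6 treated arrays lay above every control, and the change was 0.84 ± 0.15 (SE, adjusted p = 0.00021). Amiodarone, an iodinated antiarrhythmic, gave 0.86 ± 0.17 (SE, adjusted p = 0.00136) at 37.04 uM and clomipramine, a tricyclic antidepressant, 0.71 ± 0.15 (SE, adjusted p = 0.00503) at 50 uM. Npc2, the small cholesterol carrier, differed by 0.32 ± 0.046 (SE, adjusted p = 4.06e-07), with the lowest adjusted p of the list. It read 12.1, 12.4 and 12.6 with nortriptyline at 70 uM against 11.4, 11.6 and 11.99 in 14 controls, a change of 0.72 ± 0.078 (SE, adjusted p = 1.94e-07), and the groups did not overlap.

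Naglu, Neu1 and Cln3 followed. Naglu differed by 0.47 ± 0.095 (SE, adjusted p = 0.000293), and with citalopram at 150 uM it read 8.92, 9.18 and 9.46 against 7.92, 8.14 and 8.48 in 8 controls, a change of 1.03 ± 0.095 (SE, adjusted p = 1.21e-06). Neu1 differed by 0.45 ± 0.10 (SE, adjusted p = 0.00157). Its lowest, median and highest arrays with doxepin at 132 uM were 9.06, 9.15 and 9.32 against 7.83, 8.14 and 8.50 in 16 controls, a change of 1.01 ± 0.09 (SE, adjusted p = 3.84e-09), while with perhexiline its change was 0.005. In both cases with a call the groups did not overlap. Cln3 differed by 0.37 ± 0.076 (SE, adjusted p = 0.000505) and read 8.52, 8.88 and 8.96 with citalopram against 7.52, 7.92 and 8.34 in its controls. Tpp1 differed by 0.30 ± 0.054 (SE, adjusted p = 5.53e-05). With 4,4'-Diethylaminoethoxyhexestrol at 20 uM, a coronary vasodilator withdrawn for phospholipid storage in the liver, Tpp1 read 11.02, 11.3 and 11.4 against 10.2, 10.7 and 10.8 in 6 controls, a change of 0.63 ± 0.10 (SE, adjusted p = 0.000262) without overlap.

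The other genes past the threshold differed by smaller amounts. The acid alpha-glucosidase Gaa, Laptm4b, the hexosaminidase subunit Hexa and Ctsa differed by 0.30, 0.27, 0.27 and 0.26. For Laptm4b this came from a mean of 0.052 in the 22 drugs against -0.19 in the others, and it was above its controls in 15 of the 22 drugs. The pump genes Atp6v1a, Atp6v0d1 and Atp6ap1 differed by 0.26, 0.24 and 0.18, Gla by 0.22 and Ctsd by 0.21. Small differences with small errors were found for 4 genes that were called in no single treatment: 0.17 ± 0.028 (SE, adjusted p = 1.65e-05) for Lamp1, 0.17 ± 0.032 (SE, adjusted p = 0.000131) for Cd63, 0.12 ± 0.022 (SE, adjusted p = 0.000114) for Ctsb and 0.079 ± 0.025 (SE, adjusted p = 0.0342) for Ctsl. The Lamp1 difference was 0.064 with an adjusted p of 0.233 when the median of its 3 probe sets was used in place of the highest. Gla and Ctsl missed the threshold when the control set was a fixed block (adjusted p = 0.0728 and 0.0906), at 0.67 d alone (0.0794 and 0.0907), without replicate 1 (0.0679 and 0.0516) and without the compounds that called under 50 genes (0.089 and 0.0759), and Ctsl also with the array median subtracted (0.0652).

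Atp6v1b2, Atp6v1h, Mcoln1, Ctsc and Ctsh were called in many treatments, but their changes in the drugs did not pass the test against other compounds. Atp6v1b2 had a mean change of 0.87 ± 0.36 (SD over 22 drugs) but 0.61 ± 0.52 (SD over 103 compounds) elsewhere, a difference of 0.22 ± 0.11 (SE, adjusted p = 0.237). With venlafaxine at 1481 uM it read 10.4, 10.7 and 10.9 against 8.83, 9.11 and 9.58 in 16 controls, a change of 1.47 ± 0.11 (SE, adjusted p = 1.96e-10). The difference was 0.16 ± 0.074 (SE, adjusted p = 0.17) for Mcoln1 and 0.13 ± 0.081 (SE, adjusted p = 0.361) for Atp6v1h. Both were above controls in all 22 drugs and in 90 and 88 of the 103 other compounds. Ctsc had a mean change of -0.74 ± 0.35 (SD over 22 drugs) in the drugs and -0.71 elsewhere, a difference of -0.011 ± 0.14 (SE, adjusted p = 0.974), and Ctsh one of -0.13 ± 0.093 (SE, adjusted p = 0.429). With 4,4'-Diethylaminoethoxyhexestrol the 6 Ctsc arrays read 9.62, 9.77 and 10.2 against 10.8, 11.1 and 11.4 in 6 controls, a change of -1.30 ± 0.11 (SE, adjusted p = 9.47e-07). With carvedilol at 50 uM the Ctsh arrays read 8.99, 9.18 and 9.66 against 10.02, 10.4 and 10.8 in 6 controls, a change of -1.18 ± 0.099 (SE, adjusted p = 4.71e-06). These groups did not overlap. Gusb differed by 0.18 ± 0.10 (SE, adjusted p = 0.3) and Glb1 by 0.16 ± 0.075 (SE, adjusted p = 0.175), neither past the threshold.

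The number of genes called over the whole array differed between the classes as well. Its median was 1244 for the 22 drugs, with a range of 0 to 2470, and 1835 for the 19 further bases. For the 84 treatments of the remaining class, aminoglycosides apart, it was 712, with a range of 0 to 4208. With the compounds that called under 50 genes left out, 17 members were higher in the drugs (4.44% of all genes), at a median difference of 0.17. Of 15 macrophage markers 1 was higher in the drugs (5.35% of all genes) and 1 lower (3.26%). The mean over this list was -0.16 in the drugs (range -1.65 to 0.11) and -0.085 in the others (-2.46 to 1.11). The higher one was Cd68, itself a lysosomal membrane protein, and the lower one Lyz2. Of 11 hepatocyte markers 2, Cyp2e1 and Ttr, were lower in the drugs (3.26% of all genes). Their list mean was -0.56 in the drugs (-0.99 to -0.14) and -0.30 in the others. The part of these markers in the class difference was not tested.

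**Figure D3:**
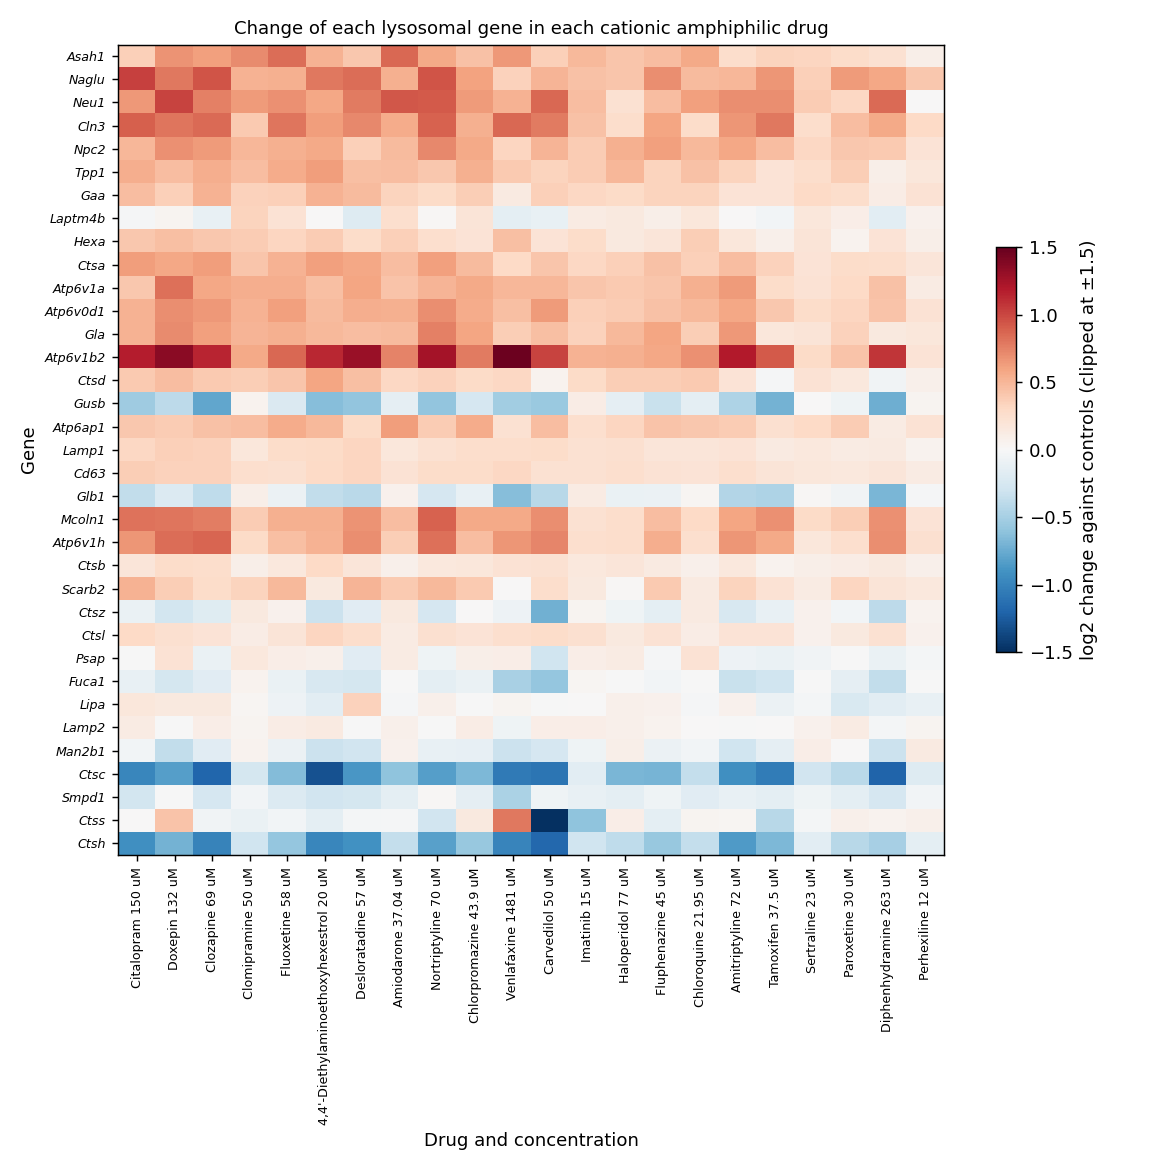
Log2 change against controls of each of the 35 lysosomal genes (rows, in the order of the class difference) in each of the 22 cationic amphiphilic drugs (columns, by decreasing median), with colours clipped at ±1.5. The row of Atp6v1b2 reached 1.47, the rows of Ctsc and Ctsh were blue in every column, and the columns ran from citalopram (median 0.37) to perhexiline (0.082).

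Drug by drug, 18 of the 22 had at least 1 member called higher, and the medians over the 35 members were above 0 in all 22. Among the tricyclic antidepressants, doxepin at 132 uM had 11 members higher, with 5.53% of all genes called higher. Nortriptyline at 70 uM had 10 members higher (6.78% of all genes), and amitriptyline at 72 uM had 7 (4.76%). Clomipramine at 50 uM had 2 (0.816%), Asah1 and Neu1, although 31 of 35 members were above their controls and their median was 0.33. Citalopram at 150 uM had 7 members higher (5.84%) and the highest median of the 22, 0.37, and fluoxetine had 5 (3.02%). Paroxetine at 30 uM had 1 (0.689%) and sertraline at 23 uM 0 (0.127%). Venlafaxine, which also blocks noradrenaline reuptake, had 4 (8.3%).

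Of the antipsychotics, clozapine at 69 uM had 11 members higher (6.27% of all genes), and the phenothiazines chlorpromazine at 43.9 uM and fluphenazine at 45 uM had 4 each (2.22% and 1.79%). Haloperidol at 77 uM had 0 (0.457%). The antihistamines desloratadine at 57 uM and diphenhydramine at 263 uM had 7 (5.98%) and 5 (6.34%). Amiodarone had 4 members higher (1.84%) and 28 of 35 above controls. Chloroquine at 21.95 uM, the antimalarial that raises lysosomal pH, had 2 (1.51%), which were Atp6v1b2 and Neu1, at changes of 0.68 and 0.61. 4,4'-Diethylaminoethoxyhexestrol and the beta blocker carvedilol had 6 each (4.38% and 5.49%), and tamoxifen at 37.5 uM, the oestrogen receptor modulator, had 5 (4.68%). Imatinib at 15 uM had 0 (0.591%) and perhexiline at 12 uM 0 (0%). Perhexiline called no gene of the 14218, and its member median of 0.082 was the lowest of the 22. At an unadjusted p of 0.05 in limma, 17 members were higher and 3 lower with haloperidol (8.96% and 13.8% of all genes), and 21 higher and 2 lower with imatinib (10.6% and 8.78%). The counts were 9 and 1 with perhexiline (4.35% and 2.31%) and 17 and 0 with sertraline (5.35% and 4.52%).

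**Figure D4:**
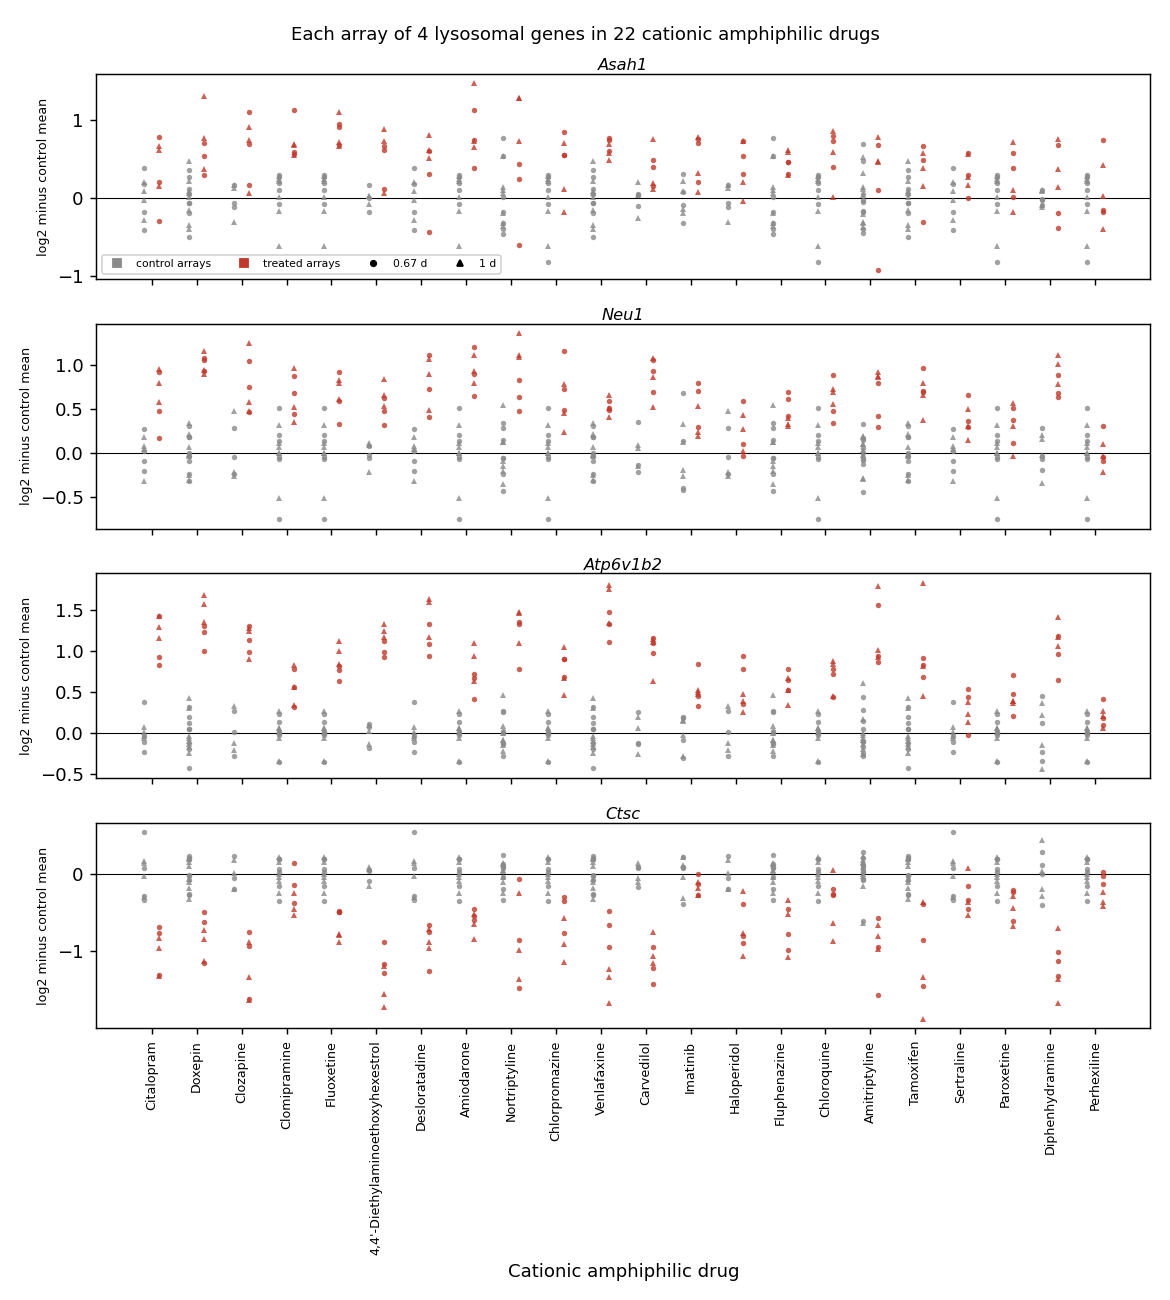
Values of Asah1, Neu1, Atp6v1b2 and Ctsc on single arrays, as log2 value minus the mean of the matched controls at the same time, for each cationic amphiphilic drug. Grey symbols are controls and red symbols treated arrays, circles 0.67 d and triangles 1 d. Treated arrays of Atp6v1b2 reached a mean change of 1.47 and those of Asah1 0.86, and Ctsc lay below 0 on average in every drug.

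The further bases lay near the drugs in these summaries. Their 19 treatments had a median of member medians of 0.19 (range -0.098 to 0.39), beside 0.26 (0.082 to 0.37) for the cationic amphiphilic drugs and 0.0078 (-0.19 to 0.41) for the 84 treatments of the last class. Members called higher averaged 4.47 per treatment in the bases, 4.59 in the drugs and 1.58 in the last class, and members called lower 2.58, 1.64 and 1.94. The median number of genes called over the whole array was 1835, 1244 and 712 in the same order. The share of all genes called in each direction by class is not given, so these averages are not read as a result about the members. The aminoglycosides gentamicin at 1000 and 2900 uM and kanamycin at 6584 uM, which also accumulate in lysosomes but carry no lipophilic part, had member medians of 0.012, -0.043 and 0.021, and limma called at most 13 genes over the whole array, with no member among them. At an unadjusted p of 0.05, 1, 2 and 0 members were higher in these 3 treatments (8.6%, 9.23% and 6.81% of all genes) and 0, 6 and 1 lower (6.56%, 6.47% and 7% of all genes). The bases as a class were not tested against the rest on their own. When they were counted with the drugs, 23 members were higher in the joint class, where 15.8% of all genes were higher, and 2, Ctsh and Smpd1, lower, where 17.1% were lower.

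**Figure D5:**
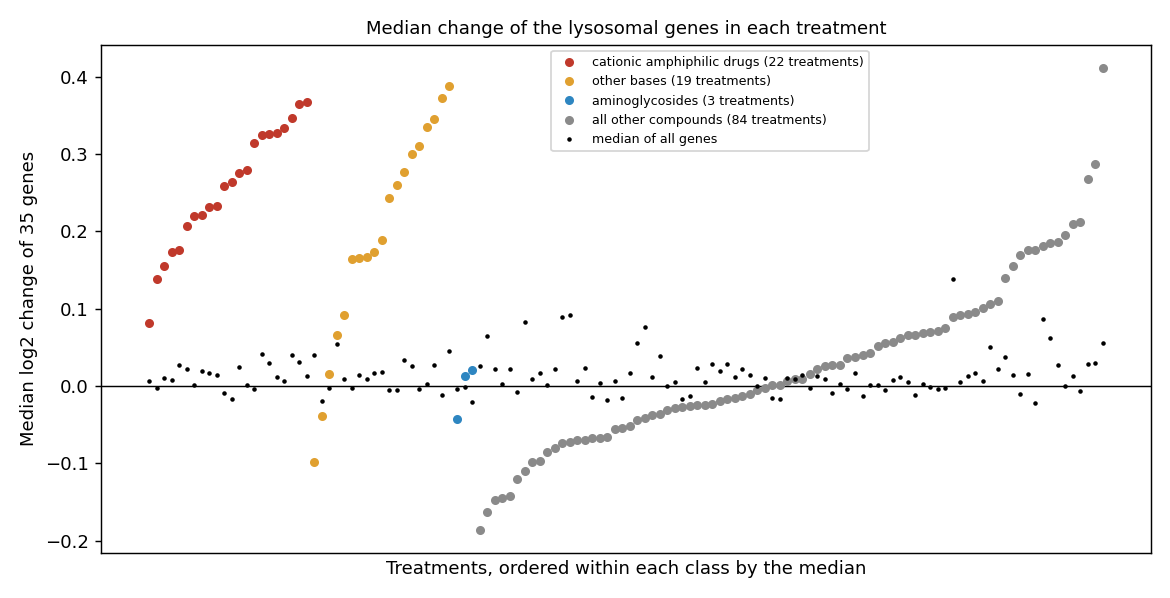
Median log2 change of the 35 lysosomal genes in each treatment, ordered within 4 classes, with the median over all 14218 genes as black dots. All 22 cationic amphiphilic drugs lay above 0, as did 64 of the 106 other treatments, and pantoprazole at the far right reached 0.41.

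Several of the treatments with most members higher were not cationic amphiphilic drugs. Pantoprazole, a proton pump inhibitor of the stomach, had 13 members higher, with 14.4% of all genes higher. All 5 measured members of the vacuolar proton pump were among them, with changes of 0.66 for Atp6ap1, 1.03 for Atp6v0d1 and 1.34 for Atp6v1a besides those given above, and so were Gla (1.57), Naglu, Cln3, Mcoln1, Neu1, Ctsa, Ctsd and Lipa. The 5 members called lower were Ctsc, Ctsh, Gusb, Laptm4b and Smpd1, where 15.1% of all genes were lower. The other 3 inhibitors of this kind were given at other concentrations, and their values are set side by side without a test. The change of Atp6v1b2 was 1.31 with rabeprazole at 333 uM, 1.49 with lansoprazole at 240 uM and 0.94 with omeprazole at 400 uM. For Naglu it was 1.04, 1.11 and 0.74 in the same order. For Neu1 it was 1.05 with rabeprazole, which was called, and 0.28 and 0.16 with lansoprazole and omeprazole, which were not called. Asah1 was called in none of the 4 in campaign 1. Omeprazole was also given in campaign 5 at 365, 400 and 435 uM. There Asah1 lay 0.69, 0.56 and 0.51 above the 3 controls and Naglu 0.89, 0.91 and 1.04, without a test.

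The antidepressant amineptine had 12 members higher (8.79% of all genes), led by Neu1 at 1.40, Atp6v1b2 at 1.23 and Atp6v1h at 1.14. Amantadine at 1500 uM, a cage-shaped amine, had 10 (8.94%), with Atp6v1b2 at 1.49 and Tpp1 at 0.69, its largest value in any treatment. Sotalol at 6666 uM, a hydrophilic beta blocker, had 9 (5.14%), including Asah1 at 0.65 and Hexa at 0.67. The DNA intercalator idarubicin at 1.5 uM had 10 (5.92%), led by Atp6v1a at 1.01 and Gla at 0.99, while neither Neu1, Naglu nor Cln3 was called and its member median was 0.092. These treatments also lowered Ctsc and Ctsh or, with idarubicin, Glb1 and Ctsz. Members called lower numbered 3 with amineptine (11.1% of all genes) and 2 with amantadine (9.55%). There were also 2 with sotalol (7.22%) and 2 with idarubicin (7.04%).

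Sporidesmin A at 0.15 uM, a fungal toxin, had the most members lower, 13, with 14.1% of all genes lower. Some of them were called higher in many other treatments. Neu1 read 6.58, 6.87 and 6.97 against 7.90, 8.28 and 8.81 in 14 controls, a change of -1.47 ± 0.12 (SE, adjusted p = 5.08e-10), and Asah1 read 6.99, 7.78 and 8.15 against 8.48, 8.87 and 9.71, a change of -1.27 ± 0.18 (SE, adjusted p = 4.59e-06). In all 13 genes, which were picked by their calls, the treated arrays lay below every control. The share of all genes that did so is not given here. The set also held Cln3 (-1.17), Naglu (-0.91), Tpp1 (-0.96), Hexa (-0.83), Gaa (-0.71), Gusb, Glb1, Ctsh, Ctsz, Fuca1 and Laptm4b. Vinblastine, which blocks microtubule assembly, had 11 members lower (17.1% of all genes), while Atp6v0d1, Atp6v1b2, Atp6v1h, Gla and Neu1 were called higher (10.4%). Its lower genes included Lipa (-0.92), Man2b1 (-0.96), Smpd1 (-0.80) and Scarb2 (-0.85). Gemfibrozil at 2000 uM, a fibrate, had 8 lower (12.3%), and 10 lower (16.9%) without the library that did not match its label.

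The remaining treatments with most members lower had 6 or 7. Cyclosporin A at 10 uM, an immunosuppressant, had 7 members lower (8.19% of all genes), among them Gusb (-1.13), Ctsh (-0.95) and Ctsc (-0.89). For 4,4'-methylenedianiline at 296 uM, an aromatic amine, the 6 lower genes (11.5%) included Ctsc (-2.07), Asah1 (-1.02), Neu1 (-0.88) and Naglu (-0.74). Sparteine at 2222 uM, an alkaloid base, had 6 lower (13%), led by Ctsc (-2.24), and the alkylating agent carmustine at 550 uM also had 6 (14.2%), led by Ctsc (-2.07). Valdecoxib at 450 uM, a COX-2 inhibitor, had 6 members lower (13.3%), led by Gusb (-1.73), while the highest values were those of Atp6v1b2 (1.43) and Neu1 (1.26). Atp6v1b2 was called higher in all 5 of these treatments, at the side of the genes that fell. Tacrolimus at 50 uM and colchicine at 2000 uM also had 6 members lower (10.6% and 9.94% of all genes), and Atp6v1b2 was called higher in both.

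Some of the compounds differ by a small change in structure, and the first 2 pairs here were given at unequal concentrations, so their values stand side by side without a test. Nortriptyline is amitriptyline without 1 methyl group on the amine. Neu1 stood 0.92 above its controls with nortriptyline at 70 uM and 0.70 with amitriptyline at 72 uM, Naglu 0.95 and 0.49, and Atp6v1b2 1.25 and 1.18. Loratadine carries a carbamate on the nitrogen that is free and basic in desloratadine. Atp6v1b2 stood 1.29 above its controls with desloratadine at 57 uM, which was called, and 0.57 with loratadine at 62.25 uM, below the bound of 1.5-fold. Neu1 stood at 0.78 and 0.43 and Naglu at 0.83 and 0.69, of which the first Neu1 value and both Naglu values were called. With loratadine Mcoln1 was the other member called higher, at 0.72.

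The anthracyclines idarubicin, daunorubicin and doxorubicin were all given at 1.5 uM and the thiopurines azathioprine and 6-mercaptopurine both at 0.5 uM, which allowed 4 pairs to be compared in limma by the difference of their changes against controls, with p-values adjusted over the 4 pairs and all genes. Idarubicin lacks a methoxy group that daunorubicin carries on its ring system, and doxorubicin carries a hydroxyl on the side chain where daunorubicin has none. Idarubicin had higher values than daunorubicin for 9 members (6.81% of all genes) and lower ones for 1, Glb1 (7.22%), and than doxorubicin for 8 (5.82%) and 2, Glb1 and Ctsh (6.1%). Atp6v1a differed by 0.68 ± 0.082 (SE, adjusted p = 3.75e-06) from daunorubicin and by 0.70 ± 0.09 (SE, adjusted p = 9.41e-06) from doxorubicin. Mcoln1 differed by 0.74 ± 0.09 (SE, adjusted p = 3.75e-06) and 0.52 ± 0.092 (SE, adjusted p = 0.000394) in the same order. Between doxorubicin and daunorubicin 0 members differed (0.162% of all genes were higher and 0.148% lower), with 1 member, Ctsc, at an unadjusted p of 0.05, and the difference was 0.46 (95% interval 0.08 to 0.84) for Ctsc, -0.02 (95% interval -0.20 to 0.16) for Atp6v1a and 0.22 (95% interval -0.00177 to 0.44) for Mcoln1. Azathioprine is 6-mercaptopurine with a nitroimidazole on its sulfur, and 0 members differed between them, none at an unadjusted p of 0.05 (0.0281% and 0.0352% of all genes), with 0.10 (95% interval -0.24 to 0.45) for Atp6v1b2. The idarubicin arrays were mostly hybridized on other days than those of daunorubicin and doxorubicin, and azathioprine on other days than 6-mercaptopurine, and the part of the day in the differences was not tested.

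Levels differed with time in culture in the controls themselves. Over 52 control arrays at each time, with the control set as a block, 17 members were higher at 1 d than at 0.67 d (18.2% of all genes) and 5 lower (16% of all genes) at an adjusted p of 0.05. The largest was Ctsc, the protease most often called lower with compounds, with means of 10.8 at 0.67 d and 11.2 at 1 d, a difference of 0.41 ± 0.044 (SE, adjusted p = 3.01e-12). Hexa, Gusb, Ctsz, Ctsh and Fuca1 were higher at 1 d by 0.27, 0.24, 0.24, 0.23 and 0.22. The 5 that were lower at 1 d were Scarb2 (-0.21), Atp6v1b2 (-0.21), Atp6v1h (-0.11), Ctsl (-0.088) and Mcoln1 (-0.08).

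In the 22 drugs the change against controls was larger at 1 d than at 0.67 d for 13 members at an adjusted p of 0.05 (6.01% of all genes) and lower for 1 (6.08% of all genes). The median difference over the members was 0.085. The change of Cln3 was 0.52 at 0.67 d and 0.69 at 1 d, a fitted difference of 0.21 ± 0.046 (SE, adjusted p = 0.00389), and was larger at 1 d in 19 of 22 drugs. Tpp1 and Scarb2 were larger at 1 d in all 22, by 0.18 and 0.17. Ctsh was the gene that went lower with time, from -0.52 to -0.72, and was lower at 1 d in 20 of 22 drugs. For Neu1, with changes of 0.61 and 0.63, the difference of 0.047 ± 0.058 did not pass the threshold, nor did that of Asah1.

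The repeat of chlorpromazine in campaign 4 called 0 of 35 members in either direction, where 0.0141% of all genes were called higher and 0.197% lower. limma gave 10 members at an unadjusted p of 0.05, 7 of them higher, where 8.72% of all genes passed. Replicate 5 of the treated arrays stood apart, with a mean over the members of 9.43 against 10.12 to 10.35 in the other 5 and a mean over all genes of 6.72 against 6.96 to 7.02. Atp6v1b2 ran from 8.79 to 9.80 in treated and from 8.41 to 9.35 in control arrays, and its medians were 9.54 and 8.78. No member separated the 6 treated from the 6 control arrays, where 1.22% of all genes did. Without replicate 5, 11 members passed an adjusted p of 0.05, all higher, and 0 reached the bounds of a call. The 11 included Atp6v1b2 at 0.70, Cln3 at 0.59, Neu1 at 0.50 and Naglu at 0.49. At an unadjusted p of 0.05 in limma, 22 members passed in this setting, where 19.8% of all genes did. The replicate number was also used as a block, since arrays of the same number deviated together in all 6 pairs. With this block 6 members passed an adjusted p of 0.05: Atp6v1b2, Cln3, Atp6ap1 and Naglu higher, Ctsc and Ctsh lower. At an unadjusted p of 0.05 in limma, 16 members passed with the block, where 16.7% of all genes did.

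In the first campaign at 1 d, with 3 treated and 6 control arrays, the difference of Atp6v1b2 from controls was 0.73 ± 0.15 (SE), where the repeat gave 0.62 ± 0.19. It was 0.49 and 0.26 for Neu1, 0.61 and 0.43 for Naglu and -0.63 and -0.64 for Ctsh. The median over the 35 members was 0.325 in the first campaign and 0.195 in the repeat, and 22 members were above controls in both. Without the outlying replicate 5 the repeat had a median of 0.324 with 26 members above controls. A contrast of the 2 campaigns found a difference at an adjusted p of 0.05 for 0 members and for 0 of the 14218 genes (0%). At an unadjusted p of 0.05 limma gave 0 members and 154 of all genes. This contrast kept replicate 5 and did not use the pairing of the repeat arrays. The repeat minus the first campaign was -0.11 ± 0.27 (SE) for Atp6v1b2, -0.23 ± 0.40 for Neu1 and 0.041 ± 0.35 for Asah1. Most members had a negative value. With errors of this size the contrast cannot show that the campaigns were alike.

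The dose series of campaign 5 held no cationic amphiphilic drug. Across omeprazole, methapyrilene, allyl alcohol, clofibrate, carbon tetrachloride and busulfan, 0 members had a slope with concentration at an adjusted p of 0.05 in limma, where 0.00117% of all slopes passed, and 4 slopes of members passed an unadjusted p of 0.05. The replicate number was also used as a block, since each number was hybridized on a day of its own save for 2 arrays. With this block 0 members had a slope, where 0.212% of all slopes passed, and 10 slopes of members passed an unadjusted p of 0.05. The share of all slopes at the unadjusted bound is not given, so neither count is read as a result about the members. For methapyrilene, an antihistamine and weak base, the changes at each concentration are given without a test. Atp6v1b2 lay 1.30, 1.18 and 1.41 above the 3 controls at 100, 300 and 500 uM, and Ctsc lay at -0.96, -0.85 and -1.11. Without replicate 2 of the series 7 members had a slope with methapyrilene, Ctsc, Ctsh, Glb1, Gusb and Smpd1 downward and Atp6v1b2 and Atp6v1h upward. Of the 85308 slopes over all genes and compounds, 2196 then passed in place of 1.

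Other genes of the organelle were compared between the classes in the same fit. Of 61 further lysosomal genes measured, 32 were higher in the cationic amphiphilic drugs and 0 lower, and at an unadjusted p of 0.05 in limma 38 were higher and 1 lower. Of all genes 5.35% were higher and 3.26% lower at the adjusted threshold, and 11.7% and 10.8% at the unadjusted one. The 32 included 12 of 20 further enzymes, led by the beta-mannosidase Manba at 0.42 ± 0.11 (SE, adjusted p = 0.00442), the iduronidase Idua at 0.40 ± 0.1 (SE, adjusted p = 0.00396) and the sialic acid esterase Siae at 0.39 ± 0.071 (SE, adjusted p = 5.53e-05). Of 17 further membrane proteins 7 were higher, led by the chloride transporter Clcn7 at 0.51 ± 0.14 (SE, adjusted p = 0.0109), the sialic acid exporter Slc17a5 at 0.41 and Cd68 at 0.41. Of 14 genes that tag or sort lysosomal enzymes 7 were higher, the largest Nagpa at 0.24 ± 0.046 (SE, adjusted p = 0.000105), and of 10 further pump subunits 6, the largest Atp6v0b at 0.39 ± 0.10 (SE, adjusted p = 0.00786). Among 10 genes of TFEB and its partners, 4 were higher and 1 lower. Rragd, the small GTPase that recruits TFEB to the lysosome, differed by 1.09 ± 0.21 (SE, adjusted p = 0.000132), Gpnmb, a membrane glycoprotein induced in storage disorders, by 0.78 ± 0.12 (SE, adjusted p = 2.62e-06), Flcn by 0.44 and Rragc by 0.27, while Tfeb itself was lower by a small amount (-0.06 ± 0.02, SE, adjusted p = 0.0424). With the control set as a fixed block all 12 enzymes and all 6 pump subunits passed the threshold, as did 4 of the 7 membrane proteins and 6 of the 7 sorting genes, while Flcn, Rragc and Tfeb missed it (adjusted p = 0.0521, 0.0589 and 0.0966).

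Cells can raise genes of cholesterol synthesis and uptake when sterol from the lysosome does not reach the endoplasmic reticulum, which was not tested here. These genes had the largest median difference of the lists. Of 18 measured, 16 were higher in the drugs and 0 lower (18 and 0 at an unadjusted p of 0.05), with a median difference of 0.52 on the log2 scale, and the largest were Lss at 0.90 ± 0.14 (SE, adjusted p = 2.42e-06), Sqle at 0.76 ± 0.12 (SE, adjusted p = 7.09e-06) and Cyp51 at 0.73 ± 0.10 (SE, adjusted p = 4.1e-07). For autophagy, 3 of 17 genes were higher (Atg7, Becn1 and Gabarap) by 0.092 to 0.13. Of 15 targets of ATF4, a factor of the amino acid and stress response, 2 were higher (Vldlr and Asns), and this list was called higher in 39.7% of its combinations with treatments over all classes. All 3 autophagy genes and Asns missed the threshold with the control set as a fixed block (adjusted p = 0.107, 0.0779 and 0.0547 for Atg7, Becn1 and Gabarap and 0.0744 for Asns), and 14 of the 16 cholesterol genes passed it. For endothelial markers 0 of 6 passed in either direction (0 higher and 4 lower at an unadjusted p of 0.05 in limma), and of 8 stellate cell and fibroblast markers 1, Dcn, was higher, though not with the fixed block (adjusted p = 0.0686).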

How the data were processed

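The table deposited by the authors held log2 expression values of 31099 probe sets on 939 arrays, for which the submitters' processing notes name RMA without a version. The values were used as deposited. Of the probe sets 20832 had 1 gene symbol, 436 several and 9831 none, 20764 symbols were updated through RefSeq (assembly GRCr8) and 68 kept. Each gene was represented by its probe set with the highest mean, which gave 14218 genes. Array number limits the precision.

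Each treatment was compared with the controls whose description names the compound, in limma 3.58.1 (R 4.3.3) with treatment and exposure time as factors, and called at an adjusted p of 0.01 or less and 1.5-fold or more, bounds taken from the methods of the study. The classes were compared over compounds with the control set as a random block and an adjusted p of 0.05, time over drugs or controls, and dose slopes with doses scored from -1 to 1. The fits were tested on simulated data. Array values are given for the members with most calls (6 for higher, 4 for lower) and the 6 with the largest class difference. Other lists are given by counts and their 3 largest differences past the threshold at most. Named treatments were the 8 with most members higher, the 8 with most lower (of 6 treatments with 6 members lower, the 4 with the lowest member median) and every cationic amphiphilic drug, and the further inhibitors of the gastric pump, loratadine, sulconazole, cisplatin, clofibrate, tacrolimus, colchicine and the pairs at equal concentration were named after their values were seen. The members, the classes and all lists were chosen with earlier results of these data known. In the chlorpromazine repeat all 6 pairs of arrays with the same number had residual correlations above 0.1 (lowest 0.424), so the numbers pair these arrays. In the dose series each of the 3 numbers marked 1 hybridization day in the labels, 2 of 57 arrays excepted. There 483 of 513 pairs of same-numbered arrays had correlations above 0.1. In campaigns 1 to 3 every same-numbered pair was above 0.1 in 40 of 128 treatments. The mean correlation of a treatment had a median of 0.274. Alternatives covered the normalization, probe set choice, controls, exposure time, hybridization day and replicates.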

Additional observations from a re-analysis of the deposited data

Results flagged for a closer look

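Single arrays stood far from the rest of their group in 9 of 40 tests of a group of 4 to 10 arrays and a measure, a gap that chance gives in about 1 of 20 groups. The 9 came from 3 groups of arrays, and 7 of them from 1 array over different measures, so they are not independent. In the chlorpromazine repeat, replicate 5 of the treated arrays had a mean over the members of 9.43 where the other 5 lay between 10.12 and 10.35, with a gap to the nearest array of 0.746 of the whole range. The same array was lowest for Neu1 (6.52 against 8.17 to 8.66, gap 0.767), Atp6v1h (8.398 against 9.376 to 9.716, gap 0.742), Mcoln1 (7.33 against 8.34 to 8.70, gap 0.742), Tpp1 (9.85 against 10.8 to 11.2, gap 0.719), Cln3 (6.96 against 7.86 to 8.22, gap 0.715) and Naglu (7.29 against 8.11 to 8.58, gap 0.634). Replicate 5 of the control arrays was lowest for Naglu (7.13 against 7.72 to 8.06, gap 0.642). Among controls of campaign 1 at 0.67 d, replicate 6 of 1 set had a member mean of 9.87 where the others lay between 10.11 and 10.23 (gap 0.67).

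The change in the cationic amphiphilic drugs differed between the 2 exposure times for 14 members by a limma test of the difference itself, with the control set as a random block. The change at 1 d minus that at 0.67 d was 0.205 for Cln3, 0.179 for Tpp1, 0.174 for Scarb2, 0.141 for Gaa and 0.131 for Ctsa. It was 0.128 for Gla, 0.104 for Atp6ap1, 0.103 for Lamp2, 0.0987 for Ctsd and 0.0963 for Npc2. Smaller positive differences were 0.0893 for Cd63, 0.0867 for Ctsl and 0.0789 for Lamp1. The negative one was -0.233 for Ctsh. The adjusted p ran from 0.000125 (Tpp1) to 0.0479 (Atp6ap1).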

How the results depend on the processing

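Member calls stayed within 1.5 times of 319 higher and 248 lower under 11 and 12 of 13 alternative settings. The exceptions were a bound of 2-fold (71 higher and 89 lower, beside 20051 and 38661 over all genes) and 0.67 d alone (198 higher, beside 48182). With the replicate number as a block the calls were 308 higher and 270 lower, and leaving out 1 replicate gave 285 to 324 higher and 224 to 248 lower. Without the 2 libraries that did not match their labels, chosen after seeing the data, they were 319 and 250. The members higher in cationic amphiphilic drugs numbered 17 to 23 over 16 settings, where 3.9% to 15.8% of all genes were higher. They numbered 17 to 19 with 1 drug or 1 replicate left out (4.4% to 5.85% of all genes) and 19 with the replicate block (5.31%). The median difference over the members ran from 0.16 to 0.20. Members lower in the drugs numbered 0 except when the other bases were counted with the drugs (2, Ctsh and Smpd1). Members that differed with time numbered 14 in the drugs (20 without a block), and in controls 22, or 18 without the control set and 19 with a replicate block in its place. In the chlorpromazine repeat every setting gave 0 calls, though the replicate block, by which these arrays are paired, raised the calls over all genes from 2 to 34 higher and from 28 to 181 lower. Members with a dose slope numbered 0 to 7 with 1 replicate left out and 0 with the replicate block. The 7 came without replicate 2, where 2196 slopes passed over all genes and compounds. The causes were not tested. Genes near background on the array and changes below 1.5-fold limit what the calls can show.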
